A study of Caenorhabditis elegans with 12 samples.

Results

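Young adult Caenorhabditis elegans carrying the n4115 allele of mir-71 were compared with N2, the laboratory wild type, at day 0 of adulthood. The 6 libraries of this comparison, 3 per genotype, were taken by the genotype and age in their labels from a series of 12, whose other 6 hold the same strains at day 5. Poly(A)-selected RNA of whole animals was sequenced in each library. The mutants were strain MT12993, and every animal of both genotypes was grown at 20 °C. Near the last molt all were put on 5-fluorodeoxyuridine at 0.1 mg/mL, which blocks the synthesis of DNA. One mutant strain was used, so the n4115 allele and any other difference between MT12993 and N2 cannot be told apart here. The labels call the replicates biological triplicates without saying how cultures were separated, so the p-values measure the spread between these libraries.

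MicroRNAs are short RNAs that guide an Argonaute protein to sites in messenger RNAs, mostly in their 3′ untranslated regions, and lower the stability or translation of those messengers. In C. elegans mir-71 is known for promoting long life and stress resistance in adults and for a part in recovery from larval arrest, and its gene lies within ppfr-1, which encodes a regulatory subunit of the protein phosphatase PP4. Direct targets are expected to be higher where the microRNA is missing, but a difference in whole animals does not separate direct from indirect effects.

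Total counts ran from 20.5 M to 65.2 M (M, mega) per library at day 0, and 3 counts, the floor used here, corresponded to 0.045 to 0.134 counts per M counts (CPM, scaled for library composition). Markers of germline, sperm, intestine, body wall muscle, pharynx, epidermis and neurons were all detected. The libraries of both genotypes differed in tissue transcripts, in part by replicate number. Summed major sperm protein transcripts, a sperm family of closely similar genes, were 1166, 2669 and 1972 CPM in N2 replicates 1, 2 and 3 and 1002, 2433 and 1374 CPM in the mutants. Summed shape and furrow collagens of the cuticle ranged 6.36-fold, from 31.7 CPM in mutant replicate 1 to 202 CPM in N2 replicate 3, with the genotypes overlapping. These collagen sums were lowest in replicate 1 of both genotypes, but highest in replicate 3 of N2 and in replicate 2 of the mutants (178 CPM). The first principal component, with 59.0% of the day 0 variance, placed both replicates 1 at one end and both replicates 2 at the other, with the genotypes overlapping. Same-numbered libraries deviated together from their group means, weakly so in pair 3. Each count below is therefore also given from a fit with the replicate number as a block. This term compares mutant and N2 within each pair.

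**Figure D1:**
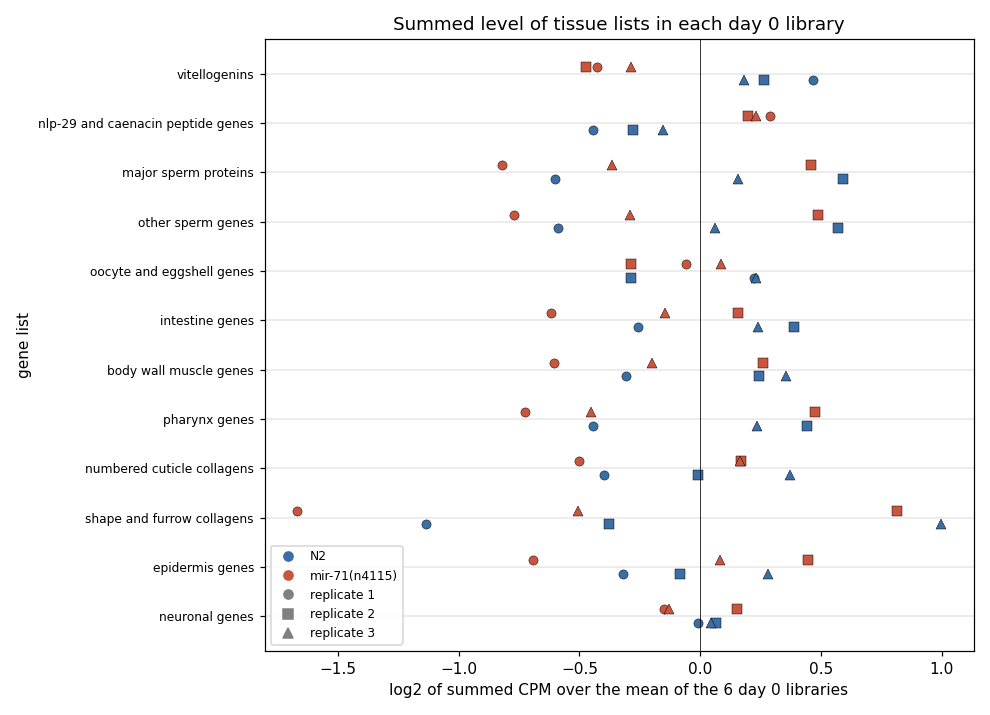
Summed CPM of 12 gene lists in each day 0 library, as log2 of the sum over the mean of the 6 libraries (x axis), with N2 in blue, mir-71(n4115) in red and a marker shape per replicate number. Sperm and pharynx sums rank the replicate numbers alike in both genotypes. Collagen sums are lowest in replicate 1 of both, but the highest replicate differs between the genotypes. The 3 mutant sums lie below every N2 sum for vitellogenins and above every N2 sum for nlp-29 and caenacin peptide genes.

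Few genes passed the threshold between the genotypes at day 0. Of 16764 genes tested, 22 (0.131%) passed an adjusted p of 0.05 in edgeR's quasi-likelihood test without a block, of which 12 (0.0716%) were higher and 10 (0.0597%) lower in the mutants. With the block 73 genes (0.435%) passed, 40 (0.239%) higher and 33 (0.197%) lower, and these included all 22. An unadjusted p under 0.05 was reached by 755 genes without the block and 1738 with it (edgeR). Without any difference a share of 0.05 of the tested genes would be expected there. The 755 lie below that share and the 1738 above it, so these are not counts of differing genes. The 3 mutant libraries lay wholly above or wholly below the 3 N2 libraries for 22 of the 22 genes and for 41 of the 51 called with the block alone, against 5.02% of all tested genes above and 4.3% below. Since the same libraries chose these genes, this separation is largely given and is no separate check. The difference was more than 2-fold for 20 of the 22 and for 61 of the 73. The median log2 difference over all tested genes was 0.00. Without a block, 0 genes passed when only the 6 day 0 libraries were fitted (501 at an unadjusted p under 0.05, edgeR). Likewise 0 passed when replicate 3 of both genotypes was left out (413). Each of these fits loses all 22 calls, and the 501 and 413 also lie below a share of 0.05 of their tested genes. With the block the day 0 libraries alone gave 38 higher and 24 lower genes, and without replicate 1 of both the blocked fit called 7 higher and 9 lower. Of the 51 genes called with the block alone, 48 no longer passed without pair 1, 21 without pair 2 and 24 without pair 3, and linc-17 and tts-2 passed in all 3 cases.

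The gene that harbours mir-71 was among those higher in the mutants. ppfr-1 (WBGene00008878, WBcel235 I:9364099-9389982, minus strand) stood at 185, 173 and 191 CPM in N2 replicates 1, 2 and 3 and at 466, 841 and 604 CPM in the mutants. The lowest mutant library was more than 2-fold above the highest N2 library. The difference was 3.49-fold (log2 1.80 ± 0.20 SE, 95% interval 1.38 to 2.23, adjusted p = 0.00376, edgeR). None of the other 4 PP4 genes passed with or without the block. The log2 differences were -0.04 for ppfr-2, -0.02 and 0.11 for the catalytic subunit genes pph-4.1 and pph-4.2, and -0.20 for smk-1, another regulatory subunit gene.

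Counts inside ppfr-1 were then set beside those of its neighbours. F16A11.5, a non-coding RNA gene on the strand opposite ppfr-1, had 39 counts in N2, summed over 3 libraries, and 489 in the mutants (10.1-fold by CPM, log2 3.33 ± 0.49, adjusted p = 0.0195, edgeR). F16A11.8, another opposite-strand RNA named after its values were seen, had a sum of 2 in N2 and of 47 in the mutants and passed with the block alone (adjusted p = 0.0324). The antisense gene anr-20 in the same host summed to 251 counts in N2 against 198 in mutants and did not pass. On the strand of ppfr-1, mir-2 summed to 2 counts in N2 and 22 in mutants, and the small nucleolar RNA gene F16A11.12 to 0 and 18. The opposite-strand F16A11.13 summed to 7 and 6 and F16A11.6 to 1 and 0. These 4, named after their values were seen, were too low to be tested. No source used here says whether counting used the strand, so reads of ppfr-1 and of the features within it cannot be told apart. Among 43 tested genes within 100 kb on either side, 0 passed with or without the block, a count near the background of 0.435% and 0.131%, and their log2 differences ran from -0.37 to 0.90 with a median of 0.06. The mir-71 gene itself had 0 counts in all 6 libraries. Mature microRNAs carry no poly(A) tail, so this checks no genotype label, and no other feature read here checks the n4115 deletion.

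The remaining 10 genes called higher without the block were protein-coding. T12B3.2 (IV:7376811-7378911) was read at 1.45, 1.71 and 1.83 CPM in N2 and at 9.42, 17 and 14.9 CPM in the mutants. The groups stood far apart, and the 8.28-fold difference had the smallest adjusted p of all genes (log2 3.05 ± 0.26, adjusted p = 0.000674, edgeR). irg-5, an infection response gene induced in the intestine by pathogens, was at 10.3, 11.6 and 9.07 CPM in N2 against 29.7, 32.3 and 43.8 CPM in the mutants. It rose 3.41-fold without overlap (log2 1.77 ± 0.21, adjusted p = 0.00429), a call that narrowly failed without N2 replicate 3 (adjusted p = 0.0545, edgeR). AC3.5 was at 13.7, 13.2 and 14.1 CPM in N2 against 33.5, 73 and 55.3 CPM in the mutants. Its N2 values lay close together and the mutant values spread widely above them (log2 1.98 ± 0.25, adjusted p = 0.00745, edgeR), and removing N2 replicate 3 took the adjusted p to 0.0553.

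Others of this group were small in level or less secure. nas-8, which encodes an astacin-type metalloprotease, was at 1.06, 0.895 and 0.898 CPM in N2 against 3.66, 3.45 and 2.86 CPM in the mutants (3.50-fold, adjusted p = 0.0403). pes-8 was at 4.37, 7.05 and 6.28 CPM in N2 against 11.8, 30.7 and 19.9 CPM in the mutants (3.53-fold, adjusted p = 0.0403). K07E3.9 rose 5.09-fold, C17B7.4 4.93-fold, T27A1.2 2.99-fold, F40G9.17 2.55-fold and F25H5.8 1.93-fold, with adjusted p from 0.0103 to 0.045 (edgeR). pes-8, nas-8 and T27A1.2 each overlap a gene on the opposite strand and F40G9.17 overlaps klp-20, so shared reads could enter their counts. Leaving out each of the 12 libraries of the fit in turn, 4 of the 22 calls (ppfr-1, T12B3.2, Y53F4B.45 and linc-45) held in each of these 12 fits. These 4 did not hold in the day 0 libraries alone or without both replicates 3 (adjusted p up to 0.183 for ppfr-1 and 0.216 for linc-45, edgeR). The other 18 were lost in 1 to 11 of the 12 single-library removals, with adjusted p up to 0.293. nas-8, F25H5.8, T27A1.2 and pes-8 lost theirs in 10 or 11 of the 12. Without mutant replicate 3 the adjusted p was 0.11 for linc-21, 0.0944 for linc-41 and 0.132 for C44B11.6, and without N2 replicate 1 it was 0.116 for F16A11.5.

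**Figure D2:**
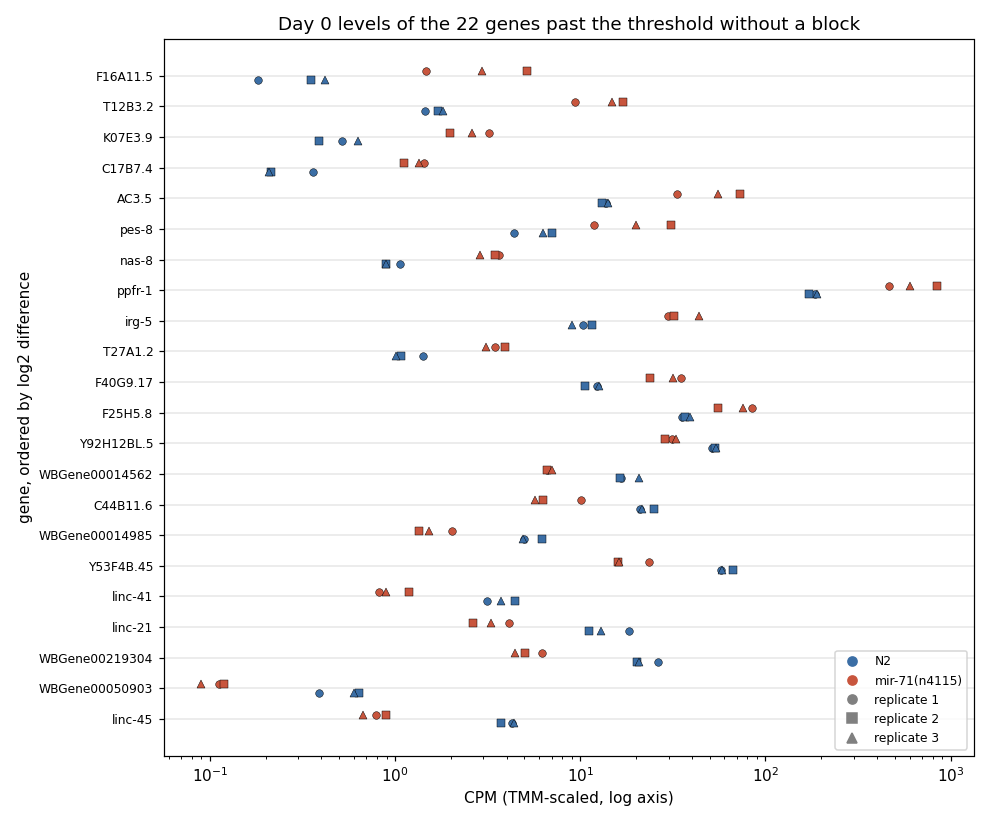
CPM (log axis) in each day 0 library of the 22 genes past the threshold without a block, ordered by their log2 difference, with N2 in blue, mir-71(n4115) in red and a marker shape per replicate number. For each gene all red points lie on one side of all blue points, and the 12 genes at the top are higher and the 10 at the bottom lower in the mutants.

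Of the 10 genes called lower without the block, 8 were not protein-coding, whereas 18 of the 33 lower with the block were. Among the 10, 3 were long intergenic non-coding RNAs (lincRNAs), 3 pseudogenes, 1 another non-coding RNA, 1 had no annotation and 2 were protein-coding. Y53F4B.45 (II:15042805-15044011), a non-coding RNA opposite trip-4, was at 57.4, 66.5 and 58.6 CPM in N2 against 23.4, 16 and 16.14 CPM in the mutants. Every mutant value was under the lowest N2 value (3.28-fold lower, log2 -1.71 ± 0.18, adjusted p = 0.00376, edgeR). linc-45 was at 4.27, 3.72 and 4.37 CPM in N2 against 0.785, 0.899 and 0.671 CPM in the mutants. It was 5.17-fold lower, with both groups tight (log2 -2.37 ± 0.27, adjusted p = 0.00426, edgeR). linc-21 was at 18.4, 11.2 and 13 CPM in N2 against 4.13, 2.64 and 3.31 CPM in the mutants (4.22-fold lower, adjusted p = 0.0128), and linc-41 was 3.87-fold lower (adjusted p = 0.0103, edgeR). The pseudogene WBGene00219304 was 4.28-fold lower (adjusted p = 0.00426), and the protein-coding Y92H12BL.5 was 1.70-fold lower (adjusted p = 0.0195, edgeR). The pseudogenes WBGene00014562 and WBGene00050903 were 2.65-fold and 4.82-fold lower and the unannotated WBGene00014985 3.26-fold (adjusted p = 0.0298, 0.0321 and 0.0200, edgeR), with the call of WBGene00050903 lost in 11 of the 12 single-library removals.

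Set against their class, 9 of 79 tested lincRNAs (11.4%) passed with the block, all lower, and 0 were higher, against 0.197% lower over all genes. Several of the 9 are close neighbours on 1 strand, as given below, so they are not 9 separate loci. The median log2 difference of the 79 was 0.02 without and -0.01 with the block, close to 0.00 over all genes, and 39 of them lay below 0. Without the block 3 of the 79 passed. Of 15627 protein-coding genes, 36 (0.230%) were higher and 18 (0.115%) lower with the block, against 0.239% and 0.197% over all genes. The higher share was thus near that of all genes. Among 1137 genes of other classes 4 (0.352%) were higher and 15 (1.32%) lower.

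Several of the lower lincRNAs were neighbours. On chromosome III linc-19, linc-45 and the short protein-coding gene C44B11.6 lie on the plus strand within 3150222 to 3153336, and each was lower in the mutants. C44B11.6 was at 21.1, 24.9 and 21.7 CPM in N2 and at 10.1, 6.32 and 5.72 CPM in the mutants (3.05-fold lower, adjusted p = 0.0133), and linc-19 passed with the block alone (log2 -1.78, adjusted p = 0.0201, edgeR). C44B11.4, the other tested gene of that stretch, did not pass. On chromosome IV linc-26, linc-41 and linc-21 lie on the minus strand within 4238173 to 4242466, and the blocked fit called all 3 lower. linc-26 was near the floor, with means of 0.43 CPM in N2 and 0.047 CPM in the mutants. Its call was lost without pair 1, without pair 2 and without pair 3. On chromosome II linc-17 and linc-68, within 3596226 to 3597914, were lower with the block (log2 -1.71 and -2.43, adjusted p = 0.00337 and 0.0219, edgeR). linc-68 was low too, with means of 0.59 CPM in N2 and 0.11 CPM in the mutants, and no longer passed without pair 1 or without pair 2. Joining genes called with the block that lie within 10 kb of each other gave 6 groups holding 15 of the 72 called genes with a position, and in 5 groups all members differed in one direction. The other groups were ppfr-1 with the RNAs inside it, lido-8 with lido-10 (both lower), and K10C2.7 (higher) with asp-14 (lower). Other tested genes within 10 kb did not pass, 7 around lido-8 and lido-10, 5 around the chromosome IV lincRNAs and 4 around K10C2.7 and asp-14. How many neighbours 72 genes drawn from all tested genes would hold was not computed, so clustering was not tested. Neighbours on 1 strand can share a transcript or reads, which was not tested. linc-17, linc-19, linc-26, linc-68, lido-10 and K10C2.7 are named after their values were seen.

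The blocked fit added 28 higher and 23 lower genes. tts-2, a non-coding RNA, was at 4.01, 9.77 and 9.34 CPM in N2 and at 20.0, 48.4 and 28.7 CPM in the mutants. The N2 and mutant levels varied with the replicate number but the groups did not overlap, and within pairs the log2 difference was 2.31, 2.3 and 1.62 (blocked log2 2.08 ± 0.22, adjusted p = 0.000482 with the block and 0.122 without, edgeR). Among the other added genes, lys-5, a lysozyme gene, rose 4.06-fold (adjusted p = 0.00918), nlp-28, an antimicrobial peptide gene of the epidermis, rose 2.23-fold (adjusted p = 0.0219) and zip-10, a bZIP transcription factor gene, rose 2.14-fold (adjusted p = 0.0388). lys-5 was low, with means of 0.56 CPM in N2 and 2.28 CPM in the mutants. The other 11 of 12 tested lysozyme genes did not pass. Of the 12, 3 were higher and 3 lower in 3 of 3 pairs, against 18.3% and 18.6% of all tested genes. bre-2, a glycosyltransferase gene known from resistance to Bacillus toxins, rose 2.98-fold (adjusted p = 0.0213, edgeR). sth-1, expressed in the spermatheca, rose 2.09-fold (adjusted p = 0.0213), and the collagen genes col-68 and col-170 rose by 1.58 and 2.49 on the log2 scale (adjusted p = 0.00222 and 0.039, edgeR). The other 128 of 130 tested numbered collagen genes did not pass.

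Lower with the block were 3 protease genes, among others. cpr-4, a cathepsin B-like protease gene, was at 43.9, 144 and 111 CPM in N2 and at 20.7, 66.9 and 37 CPM in the mutants. The groups overlapped, since mutant replicate 2 exceeded N2 replicate 1, but each mutant library was below its N2 partner (blocked log2 -1.26 ± 0.18, adjusted p = 0.00418, edgeR). asp-14, an aspartyl protease gene, was at 192, 267 and 151 CPM in N2 against 94.8, 160 and 89.7 CPM in the mutants (blocked log2 -0.83, adjusted p = 0.0102), with mutant replicate 2 above N2 replicate 3. cpz-1, a cathepsin Z-like gene, fell by 0.68 on the log2 scale (adjusted p = 0.0484, edgeR). pud-4 fell by 1.25, thn-2, a thaumatin-like gene, by 0.95, the cytochrome P450 gene cyp-25A1 by 1.37 and the C-type lectin gene clec-166 by 1.21, with adjusted p from 0.0194 to 0.0499. None of these passed without the block.

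The same strains at day 5 share no library with this comparison, although the fit shares its estimate of the spread. All 22 genes had the same sign there, as did 56.2% of all tested genes, and 18 passed in the same direction, 12 of the 12 higher (7.63% of all tested genes were higher at day 5) and 6 of the 10 lower (3.1% of all were lower). Over all tested genes 7.61% passed at day 5 in their day 0 direction. Of the 51 called with the block alone, 45 had the same sign and 27 passed in the same direction, beside those same shares over all genes. T12B3.2 was at 1.87, 1.80 and 1.73 CPM in N2 and at 18.8, 13.7 and 13.9 CPM in the mutants at day 5, an 8.60-fold difference beside 8.28-fold at day 0. irg-5 was 2.58-fold higher at day 5 (adjusted p = 0.00182, edgeR), and the opposite-strand F16A11.5 26.4-fold (adjusted p = 0.000511).

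Some genes separated the genotypes at day 0 and not at day 5. Y53F4B.45 was at 31.3, 44.8 and 39.5 CPM in day 5 N2 and at 32.3, 39.5 and 37.8 CPM in day 5 mutants. The groups overlapped there, and the difference between the ages itself passed, as for 0.555% of all tested genes (log2 1.63 ± 0.25, adjusted p = 0.021, edgeR). C44B11.6 likewise had a log2 difference of -0.04 at day 5, and the difference between ages fell just short (log2 1.57 ± 0.31, adjusted p = 0.0501) and passed with the block (adjusted p = 0.00452, edgeR). In the blocked fit the difference between ages passed for 18 of the 73 genes, against 6.23% of all tested genes, and the day 0 values that chose these genes enter that difference. asp-14 fell with age in both genotypes, to 50.3, 50.9 and 53 CPM in N2 against 7.73, 5.41 and 8.07 CPM in mutants. Its log2 difference went from -0.82 at day 0 to -2.87 at day 5 (difference between ages log2 -2.04 ± 0.35, adjusted p = 0.0267, edgeR). cpr-4 went the other way at day 5, at 34.8, 29.7 and 44.5 CPM in N2 against 103, 151 and 108 CPM in the mutants (log2 1.73, adjusted p = 0.0263). The difference between ages for cpr-4 did not pass without the block (adjusted p = 0.0549) and passed with it (adjusted p = 4.11e-05, edgeR). folt-2, of the folate transporter family, and C23H5.8, named after its values were seen, were higher in day 0 mutants with the block and lower at day 5 (log2 -1.18 and -0.94, adjusted p = 0.0457 and 0.0463, edgeR).

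**Figure D3:**
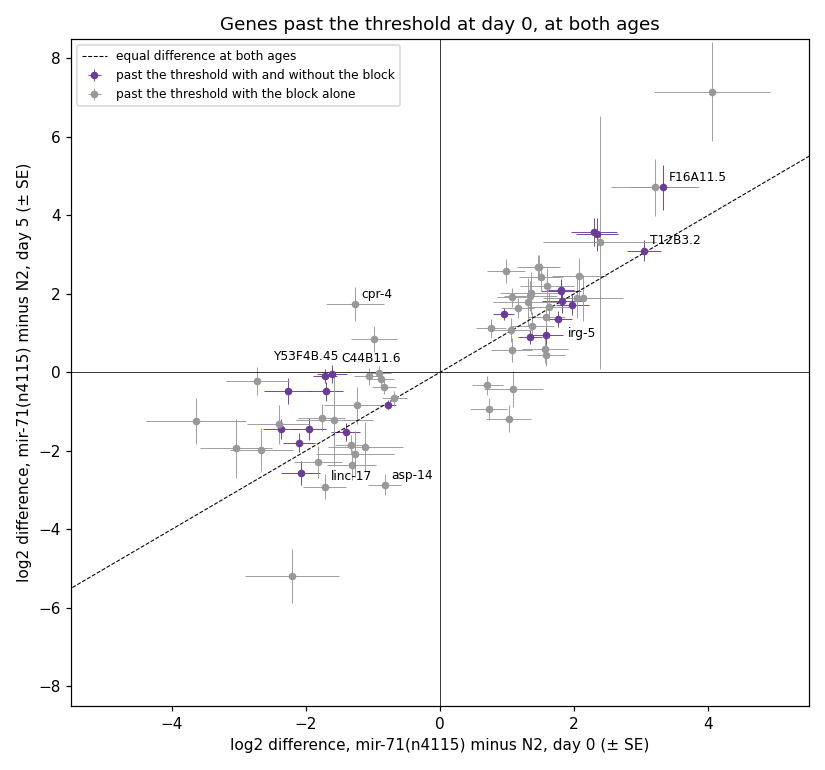
Log2 difference between mir-71(n4115) and N2 at day 0 (x axis) and day 5 (y axis), each ± SE from the fit without a block, for the 73 genes called at day 0 with the block; purple points also passed without it. Most points lie in the upper right and lower left corners, Y53F4B.45 and C44B11.6 lie near 0 on the day 5 axis, and cpr-4 lies above it.

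Genes tied to mir-71 in published work formed a list of 10, and 0 of them passed with or without the block, where 0.435% of all genes did with it. hbl-1, a zinc finger transcription factor gene of developmental timing, came nearest, at 2.72, 3.13 and 3.92 CPM in N2 and 1.35, 1.81 and 2.24 CPM in the mutants. All 3 mutant values were below the N2 values (log2 -0.87 ± 0.27, 95% interval -1.45 to -0.28), but the adjusted p was 0.745 without and 0.155 with the block (edgeR). tir-1 and nsy-1, which encode an adaptor and a kinase at the head of the p38 MAP kinase pathway, had log2 differences of 0.13 (95% interval -0.41 to 0.67) and 0.02 (-0.45 to 0.48). unc-31, needed for dense-core vesicle release, was at -0.05 (-0.59 to 0.50), the insulin pathway kinase genes age-1 and pdk-1 at -0.20 (-0.57 to 0.17) and -0.10 (-0.61 to 0.41), and the checkpoint genes cdc-25.1 and chk-1 at -0.15 (-0.43 to 0.14) and 0.07 (-0.23 to 0.37). pha-4, a transcription factor gene, was at -0.01 (-0.48 to 0.47). lin-42, the worm period homolog, was poorly resolved at 0.25 (-0.86 to 1.37), with mutant replicate 2 at 16 CPM and mutant replicate 1 at 2.69 CPM. Outside the list, the microRNA Argonaute genes alg-1 and alg-2 were at -0.20 and -0.07 and the insulin pathway genes daf-16 and daf-2 at -0.17 and -0.35, none passing.

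Of the 44 gene lists drawn up, vitellogenins had the lowest median difference and nlp-29 and caenacin peptide genes the highest. The lists themselves were not tested. The 6 vitellogenin genes, which encode yolk proteins made in the intestine, had a median log2 difference of -0.75, against 0.00 over all genes. Each was lower in the mutants in 3 of 3 pairs, as were 18.6% of all tested genes, and 5 of the 6 lay below N2 in every mutant library, as did 4.3% of all genes. Their summed level was 47135, 41040 and 38669 CPM in N2 and 25403, 24590 and 27992 CPM in the mutants. None of the 6 passed alone (vit-3 nearest, log2 -0.92 ± 0.34, adjusted p = 0.906 without and 0.0744 with the block, edgeR), and reads can be shared among these similar genes. Summed levels of the other intestine list ran from 7165 to 11216 CPM in N2 and from 5572 to 9528 CPM in the mutants. The groups overlapped, but the mutant sum was 0.778, 0.850 and 0.766 of its N2 partner in pairs 1, 2 and 3, and 13 of 26 tested members were lower and 3 higher in 3 of 3 pairs. Its part in the vitellogenin difference was not tested, and fewer intestinal cells or less RNA per cell cannot be told apart from lower transcript levels in whole animals.

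The nlp-29 and caenacin peptide genes, antimicrobial peptides of the epidermis, had the highest median. Their 18 tested members had a median log2 difference of 0.53, and 11 were higher and 0 lower in 3 of 3 pairs, against 18.3% higher and 18.6% lower over all genes. The summed level was 188, 211 and 230 CPM in N2 and 313, 293 and 301 CPM in the mutants, without overlap. nlp-28 was the 1 member past the threshold, with the block (0.239% of all genes were higher there), at 12.2, 8.35 and 10.9 CPM in N2 and 28.4, 23 and 18.6 CPM in the mutants. nlp-29 itself was at 7.68, 4.63 and 7.87 CPM against 16.9, 10.5 and 10.2 CPM (log2 0.91 ± 0.34, adjusted p = 0.906 without and 0.241 with the block, edgeR). Summed epidermis markers overlapped between the genotypes, from 861 to 1307 CPM in N2 and from 665 to 1463 CPM in the mutants. Beside irg-5 and zip-10, 22 of the 24 tested infection response genes did not pass in either fit. Of the 11 p38 pathway genes 0 passed, a count near the share over all genes (0.435% with the block, 0.131% without).

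**Figure D4:**
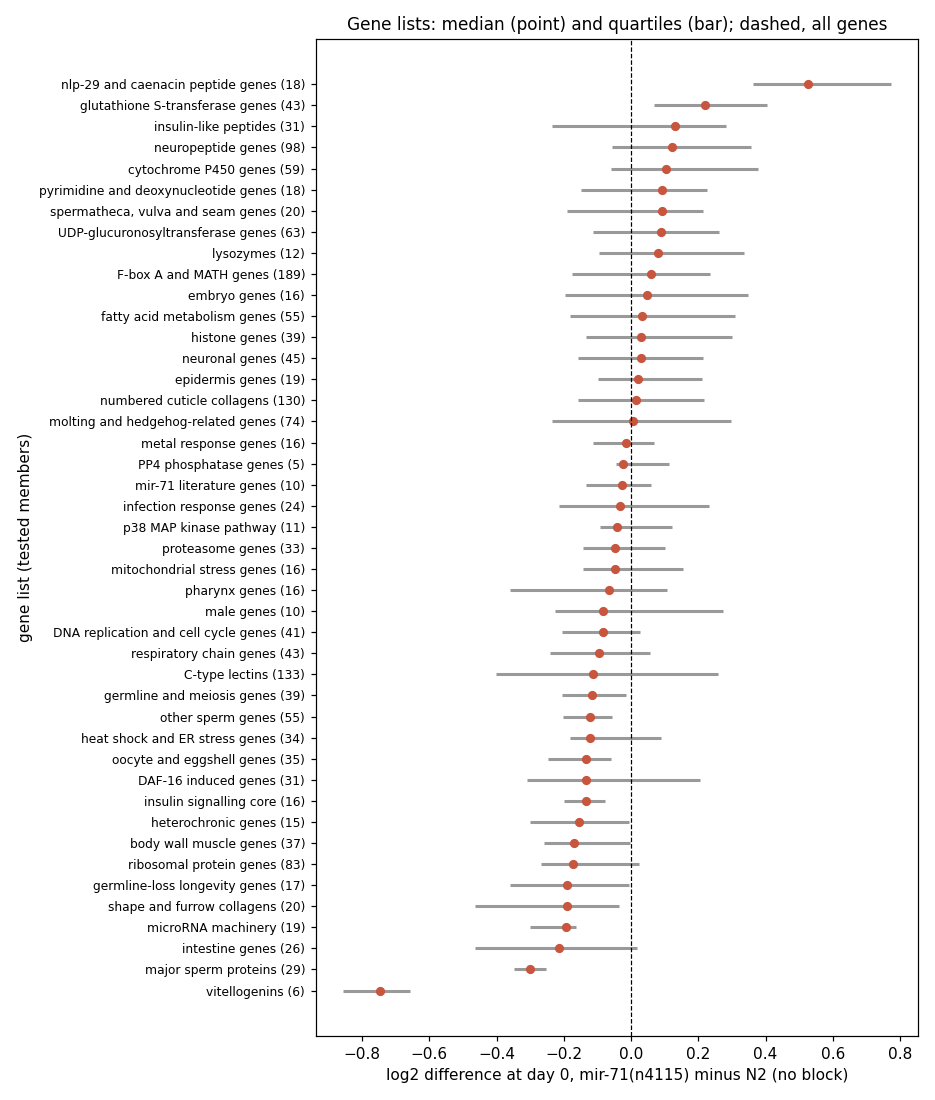
Median (point) and quartiles (bar) of the day 0 log2 difference, mir-71(n4115) minus N2 without a block, for each of the 44 gene lists, with the number of tested members in parentheses and the median of all tested genes as a dashed line. Vitellogenins at -0.75 and nlp-29 and caenacin peptide genes at 0.53 lie farthest from the line.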

How the data were processed

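The authors deposited read counts per gene and library, unscaled whole numbers, and log2 values named rlog per the labels of that table (regularized log2 of scaled counts), which served as an alternative. Per the submitters' processing notes STAR 2.4.0h, DESeq2 and the build WBcel235 were used. Which program counted reads, with which annotation and strand setting, is not given in the sources used. Gene positions and classes come from the Ensembl annotation of WBcel235.

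From the counts, edgeR 4.0.16 in R 4.3.3 (TMM factors 0.868 to 1.17, filterByExpr, quasi-likelihood) fitted 4 group means to all 12 libraries, with Benjamini-Hochberg adjustment over 16764 genes and a threshold of 0.05. SE is the absolute log2 difference over the square root of F, and n is 3 libraries per group throughout. Levels are TMM-scaled CPM. The script was tested on simulated data. Floors and p-values do not cover error shared by all libraries of a strain, and the floors cover counting error only.

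Replicate numbers, which the labels give without saying that they mark a shared batch, were checked by correlating each library's deviations from its group mean across genotypes. At day 0 the same-number values of r were 0.76, 0.66 and 0.28, all over 0.1, so the blocked fit is given beside the results it changes. Values between different numbers ran from -0.76 to 0.15. N2 replicate 1 with mutant replicate 3 (0.12) and N2 replicate 3 with mutant replicate 2 (0.15) also exceeded 0.1. The limit of 0.1 alone therefore does not set same-number pairs apart, and pair 3 is weak.

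Genes named are all called without a block, the largest differences called with it (mean of at least 3 log2 CPM, the same direction in all pairs), up to 3 per list with the smallest blocked p, and the mir-71 and PP4 genes. The comparison and its lists were chosen with earlier results of these data known. Alternatives were RLE and upper-quartile factors, TMM without germline, yolk and cuticle lists, no filter, at least 1 CPM, DESeq2 1.42.0, limma 3.58.1 (voom, or on rlog), day 0 libraries alone, the replicate block and left-out libraries. A planned search for mir-71 seed matches was not run, since no sequences were used here.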

Additional observations from a re-analysis of the deposited data

Results flagged for a closer look

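The genotype difference of 2 genes called at day 0, Y53F4B.45 in both fits and asp-14 with the block alone, differed from that at day 5 by the test of the difference itself. Y53F4B.45 was lower in mutants at day 0, with a log2 difference of -0.08 at day 5 (difference between ages log2 1.63, adjusted p = 0.021, edgeR). asp-14 was lower in mutants at both ages, with a larger log2 difference at day 5 (difference between ages log2 -2.04, adjusted p = 0.0267, edgeR). Over all tested genes 93 (0.555%) passed that test.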

How the results depend on the processing

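All 22 genes called without a block had the same sign under each of the 32 alternatives that gave a value. Their day 0 groups did not overlap, so a change of sign was hardly possible and this is no independent check. Main counts were 12 higher and 10 lower. RLE factors gave 12 and 10, upper-quartile factors 9 and 10, TMM without the named lists 12 and 11, no filter 18 and 14, at least 1 CPM 11 and 9, limma-voom 8 and 10 and limma on rlog values 16 and 12, while DESeq2 gave 35 and 26. With day 0 libraries alone 0 and 0 genes passed in edgeR (501 at an unadjusted p under 0.05), and leaving out replicates took the higher calls from 0 to 10 and the lower calls from 0 to 10, with 6 and 5, 7 and 6, and 0 and 0 when replicate 1, 2 or 3 of both genotypes was left out. The replicate block gave 40 and 33 in all libraries and 38 and 24 in the day 0 libraries alone. The following were chosen after seeing the data. The block gave 61 and 48 with RLE factors, 27 and 27 with upper-quartile factors and 90 and 64 with DESeq2. Leaving out replicate 1, 2 or 3 of both genotypes under the block gave 7 and 9, 51 and 71, and 38 and 25. Of the 22 genes called without a block, the difference between ages passed for 1, for 2 under upper-quartile factors and for 3 under the block. The cause of these shifts was not tested. At 20.5 M counts in the shallowest library, differences under about 0.134 CPM lie below the floor of 3 counts.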

Other observations

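Other lists hold differences that did not pass gene by gene. Of 98 neuropeptide genes, 28 were higher and 6 lower in the mutants in 3 of 3 pairs (median log2 difference 0.12), with summed levels of 1012, 1058 and 1036 CPM in N2 and 1393, 1169 and 1134 CPM in the mutants. nlp-28 was the 1 member past the threshold. It belongs to the nlp-29 and caenacin list too, so the differences of these overlapping lists are not separate observations. Of 43 glutathione S-transferase genes, which act in detoxification, 16 were higher and 3 lower in 3 of 3 pairs (median 0.22), and 0 passed in either fit. The 83 ribosomal protein genes had a median of -0.17 with 45 lower and 0 higher in 3 of 3 pairs, and the 29 major sperm protein genes a median of -0.30 with 20 lower and 0 higher, with 0 passing in either list. Over all tested genes 18.3% were higher and 18.6% lower in 3 of 3 pairs. Mutant replicate 3 had the fewest counts (20.5 M), and the part of depth or tissue content in these list differences was not tested.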
